A study of Mus musculus with 51 samples.

Results

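The extremes of a spike-in series were set against each other: the 3 arrays that carried 2 pmol of each spiked gene and the 3 arrays that carried 0.025 pmol, together 6 of the 51 arrays of the series. The arrays were taken by the amount in their titles, and the amounts lie 80-fold apart, which is 6.32 on the log2 scale. The question was which genes still gained ratio between the channels over that range. The series, whose title concerns the evaluation of methods for finding changed genes, used self-hybridisation: both channels of each array held RNA of CRL1606 cells, a mouse hybridoma made by fusing antigen-primed BALB/c spleen cells with a BALB/c myeloma and secreting an antibody to human fibronectin. At each end, 100 genes had been added to the RNA of channel 1 and another 100 to that of channel 2, all at the same amount per gene. No genotype, drug or time course entered the design. All arrays used 1 established cell line. The labels do not tie replicates to cultures of their own, and every p-value below therefore reflects the spread between arrays alone, which may be technical.

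A hybridoma combines the antibody production of a plasma cell with the growth of a myeloma. On a 2-colour array, a transcript that is equally abundant in both RNAs should give a log ratio near 0, and a transcript added to only 1 of them should move away from 0. The ratio also includes the transcript already made by the cells and any background signal in either channel, so it need not follow the added amount one for one.

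The names of the spiked genes were not used here, since no table read here gives them. Which channel is the numerator was also not given in the sources used here, so ratios are described as positive or negative and not by the brighter channel. Values are log2 ratios after each array's median was set to 0. A probe is a pair of spots a fixed distance apart, averaged (5458 pairs had 1 accession for both spots, and no pair had different ones), and a probe without a gene symbol is named by the number of its first spot. Because both channels held the same RNA, ratios cannot show whether a cell type's markers were expressed, and the hybridoma identity could not be checked.

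The 6 arrays gave between 16477 and 16864 measured spots of 16896, and their paired spots correlated at between 0.887 and 0.976. The arrays of 2 pmol resembled each other more (Pearson r across 7920 probes, which are not independent replicates, of 0.868 to 0.939) than those of 0.025 pmol did (0.639 to 0.794). Replicate 2 of 0.025 pmol was the farthest from the 2 pmol arrays, with correlations of 0.361 to 0.424, and it had the widest spread over probes, an SD of 1.14. Without it, 1475 probes in place of 1386 passed the test described below. The number of arrays, 3 in each group, limits the precision of every value below.

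The 4 probes named with this comparison, those of Ino80, Polh, Tcra and Sft2d1, had means within 1 log2 unit of 0 at 0.025 pmol and far from 0 at 2 pmol. They came from earlier results that included these arrays, so their changes are not independent support. Ino80 encodes the ATPase of a chromatin remodelling complex. Its log2 ratios were 1.87, -0.78 and -0.14 at 0.025 pmol and 6.22, 6.33 and 6.17 at 2 pmol. The groups lay far apart, and the high arrays agreed within a much narrower range than the low ones. The difference was 5.92 ± 0.60 (SE; limma adjusted p = 0.000881). On the 6 arrays with no spike the probe averaged -0.01 ± 0.18 (SD, n = 6).

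Polh encodes DNA polymerase eta, which copies past ultraviolet damage. Its probe at spot 9423 read -0.15, -2.82 and 0.20 at 0.025 pmol and 5.33, 5.49 and 5.34 at 2 pmol. Replicate 2 of 0.025 pmol lay well below the other arrays of its group. The difference of 6.31 ± 0.71 (SE; limma adjusted p = 0.00143) was the largest of all probes named here. The 95% interval ran from 4.67 to 7.95 and held 6.32, the log2 of the amounts' ratio. So did the intervals of Ino80 (4.54 to 7.31) and of the unnamed probe at spot 9467 (4.72 to 6.63). The low mean of Polh, -0.92, lay below its unspiked mean of -0.28. A different probe of Polh, at spot 6868, did not follow: its difference was -0.34 ± 0.28 (limma adjusted p = 0.396), with overlapping groups and every array within 0.52 of 0.

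Tcra encodes the alpha chain of the T cell receptor. It read -0.20, -1.01 and 1.22 at 0.025 pmol, with a group mean of 0.01, and -6.38, -6.40 and -5.86 at 2 pmol. The low arrays straddled 0 and all 3 high arrays lay beyond -5.8. The difference was -6.22 ± 0.52 (SE; limma adjusted p = 0.000448), and its 95% interval of -7.42 to -5.02 also held the full log2 range in size. Sft2d1, whose product belongs to a family of Golgi vesicle transport proteins, read 0.14, -0.78 and -0.10 against -4.41, -4.11 and -3.77. Its groups did not overlap, and the difference was -3.85 ± 0.30 (limma adjusted p = 0.000385). Over the 17 alternative settings, the differences stayed called for all 4 probes and ranged from 5.07 to 6.70 for Ino80, 5.36 to 6.99 for Polh, -6.92 to -5.54 for Tcra and -4.41 to -3.17 for Sft2d1. The other Sft2d1 probe, at spot 10792, went from -0.96 ± 0.79 to 0.09 ± 0.14 (SD, n = 3 each) and did not pass the test (1.05 ± 0.38, limma adjusted p = 0.0913).

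**Figure D1:**
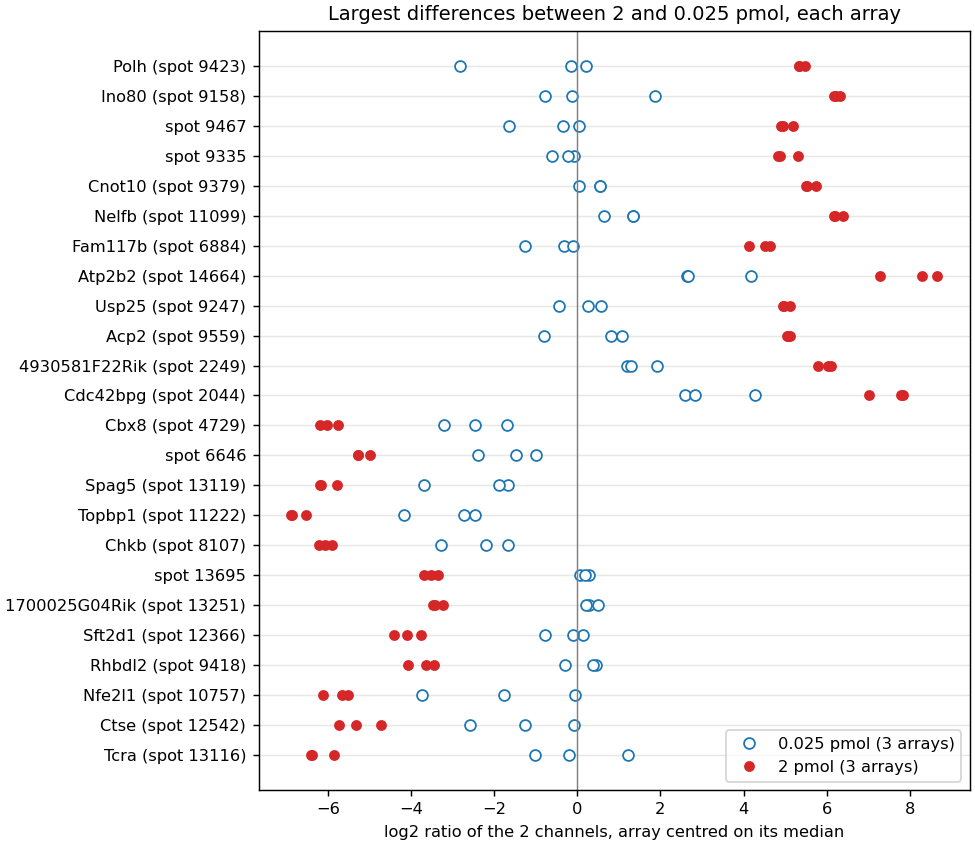
Each row is 1 of the 24 probes with the largest differences, and each point is 1 array's log2 ratio after centring, open blue for the 3 arrays of 0.025 pmol and filled red for the 3 of 2 pmol. Polh (-2.82 to 0.20) and Ino80 (-0.78 to 1.87) lie on both sides of 0 at the low amount and above 5 at the high one, while Tcra goes from between -1.01 and 1.22 to beyond -5.8.

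Across all probes, 1386 of 7901 tested passed the limma test at an adjusted p under 0.05 (17.5%), 792 with a positive difference (10.0%) and 594 with a negative one (7.52%). At an unadjusted p under 0.05 there were 2883. The groups did not overlap for 3451 probes (43.7%). The count rested on single arrays: it was 360 without replicate 1 of 2 pmol, 411 without replicate 3 and 749 without replicate 2, and 1244, 1475 and 1076 without replicates 1, 2 and 3 of 0.025 pmol. Without centring it was 1748, of which 94.2% were positive against 57.1% with centring. The median difference over all tested probes was then 0.75 in place of 0.07.

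Called probes fell about equally into those that gained and those that lost ratio. The 2 pmol mean lay farther from 0 than the 0.025 pmol mean in 669 (8.47% of those tested; 372 positive and 297 negative) and nearer to 0 in 717 (9.07%). Most of the 717 did not only shrink, since their means changed sign between the amounts. This held for 280 of the 325 with a positive 2 pmol mean and 252 of the 392 with a negative one. The differences between the amounts were larger among probes that gained ratio, with a median size of 1.57 against 1.17. Where the sign changed, the change in distance from 0 was smaller than the difference. Differences of 2 log2 units or more were called positive for 198 probes (2.51%) and negative for 102 (1.29%).

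The 12 leading positive differences ran from 4.32 to 6.31, and 8 of those probes had a 0.025 pmol mean within 1 log2 unit of 0. They were the largest among called probes whose groups did not overlap, with at most 2 unnamed probes. By that limit unnamed probes such as spot 839 (4.76) were passed over. Groups did not overlap for 43.7% of all tested probes. After Polh and Ino80 came the unnamed probes at spots 9467 (5.67 ± 0.41) and 9335 (5.30 ± 0.25). Cnot10, a subunit of the CCR4-NOT deadenylase complex, read 0.53, 0.55 and 0.04 against 5.51, 5.75 and 5.52. Its difference of 5.22 ± 0.23 had a limma adjusted p of 0.000101, and its arrays spread far less than those of Ino80 or Polh. Usp25, a deubiquitinase, read 0.24, -0.45 and 0.56 against 4.97, 5.13 and 4.94. Fam117b moved from a mean of -0.56 ± 0.62 to 4.43 ± 0.27 (SD, n = 3 each). All 3 genes had means within 1 log2 unit of 0 at the low amount and above 4 at the high one.

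The 4 candidates for spiked genes among these 12, chosen as described below, were already positive on every array of 0.025 pmol. Nelfb, a subunit of the negative elongation factor that pauses RNA polymerase II, read 1.33, 1.33 and 0.64 against 6.17, 6.40 and 6.21, a difference of 5.16 ± 0.25 (SE). Atp2b2, a plasma membrane calcium pump, read 2.65, 2.67 and 4.17 against 8.66, 8.29 and 7.28, and its difference was 4.92 ± 0.50. Both were higher on every 2 pmol array, as the choice of these probes required. The probes 4930581F22Rik (4.51 ± 0.26) and Cdc42bpg, a kinase related to myotonic dystrophy kinase (4.32 ± 0.46), also started above 0, at means of 1.47 and 3.24. Acp2, lysosomal acid phosphatase, lay near 0 at the low amount (a mean of 0.36 ± 1.01, SD, n = 3) and had probes that moved in opposite directions: spot 9559 rose by 4.72 ± 0.46 while spot 12166 fell by 1.82 ± 0.31 (limma adjusted p = 0.00863).

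Of these 12 probes, 6 lay in 1 of the 48 print blocks of the array, block 27. All 8 tested probes of column 7 of that block were called positive, with differences of 2.89 to 6.31. They included Cpsf6, a subunit of a pre-mRNA cleavage factor (3.80), Tmc7 (2.89), Usp25, Cnot10 and Polh. Ino80 and the probe at spot 9202 (4.48) lay in column 6 next to them. The other 14 probes of columns 6 and 8 had differences of -1.48 to 0.90, and none of the 3 called among them was positive. Of the 20 called differences of 4 or more on the whole array, 7 were in block 27, which held 165 tested probes.

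Of 1055 block columns on the array, 202 had at least 1 probe called by 2 log2 units in 1 direction, 16 had at least 3, 3 had at least 5, and column 7 of block 27 was the single one with 8. The others with 5 were column 7 of block 36, all positive, and column 7 of block 38, all negative, which holds Spag5, Sel1l and 1700025G04Rik. These counts take 1 direction at a time. In column 7 of block 35, 3 of 7 tested probes were called positive and 4 negative by 2 or more. Over all blocks, column 7 had 43 such calls in either direction among 382 tested probes, the most of the 22 columns, against 3.8% of all probes. The part of print position in the gains of Polh, Cnot10, Usp25 and Ino80 was not tested.

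**Figure D2:**
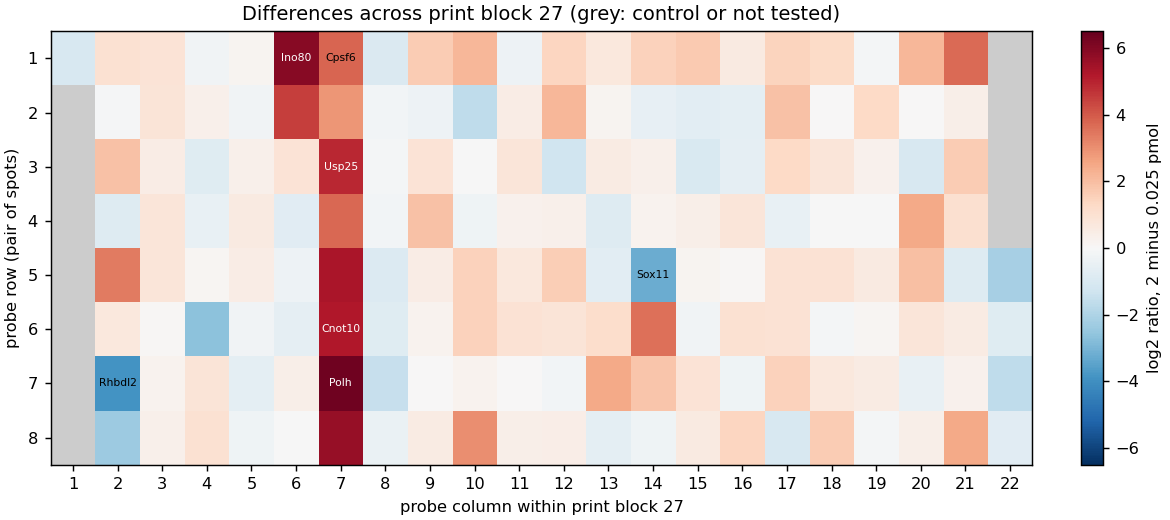
Each cell is 1 probe of print block 27, placed by its column and row on the array and coloured by its log2 difference, 2 minus 0.025 pmol (red positive, blue negative, grey control or not tested). Column 7 is red from top to bottom, with differences of 2.89 to 6.31, and Ino80 sits beside its top end.

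The 12 leading negative differences, chosen by the same rule, ran from -6.22 to -3.54. After Tcra, whose difference stood more than 2 log2 units beyond the next, came Ctse, the endosomal protease cathepsin E. It read -0.07, -2.57 and -1.27 against -5.73, -5.33 and -4.72, with a difference of -3.96 ± 0.59. Nfe2l1, a transcription factor that induces proteasome genes, read -0.05, -3.74 and -1.78 against -6.12, -5.66 and -5.53. Its 0.025 pmol arrays spread over more than 3 log2 units, and its difference of -3.91 ± 0.79 had the highest limma adjusted p of the 12, 0.0174. It was also the only 1 of these 24 leading probes that lost its call under some of the alternative settings (2 of 17).

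Rhbdl2, a rhomboid protease, read 0.45, -0.29 and 0.38 against -4.08, -3.66 and -3.44, so it was near 0 at the low amount. The same held for 1700025G04Rik at spot 13251 (0.29, 0.21 and 0.49 against -3.24, -3.48 and -3.43) and for the unnamed probe at spot 13695 (a mean of 0.18 against -3.53). Each of the 3 had groups that did not overlap, which the choice of these probes required. A different 1700025G04Rik probe, at spot 3399, had a difference of -0.10 ± 0.23 (limma adjusted p = 0.766).

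Chkb, choline kinase beta, Topbp1, a scaffold of the DNA replication checkpoint, Spag5, a mitotic spindle protein, and Cbx8, a Polycomb subunit, were already negative at 0.025 pmol. Their means there were -2.39, -3.12, -2.42 and -2.46. At 2 pmol they reached -6.06, -6.77, -6.05 and -6.00, with differences between -3.68 and -3.54. The unnamed probe at spot 6646 went from -1.63 to -5.19. All 5 lay lower on every 2 pmol array than on any 0.025 pmol array, which was a condition of their choice.

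Most other probes of the same accession were not called the same way. Of 146 probes called positive by 2 or more with a gain of ratio, 24 had another probe of their accession, and of those 31 other probes 5 were called positive, from Mbtps2, Phactr2, Sspn and Tsc22d1. Of 92 such negative probes 20 had another, and 5 of 25 were called negative, from Fem1c, Pml and Rpf1. Over all probes, 10.0% were called positive and 7.52% negative. Fem1c, an adaptor of a ubiquitin ligase, had both its probes called, at -2.33 ± 0.37 and -2.88 ± 0.44.

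To find likely spiked probes without the 6 arrays, the 39 arrays of the 8 amounts between the ends were used. Probes measured on at least 30 of them, with 1 sign on at least 90% of those, were ranked by their mean over the amounts, and the 100 highest and 100 lowest were kept as candidates. This rule favours probes that are already far from 0 at low amounts: Tcra and Sft2d1 were candidates, while Ino80 and Polh were not. The last positive candidate, spot 13736, had a mean of 2.33 and the first left out, Ubap2, 2.31. The corresponding negative pair was Vangl1 at -1.75 and Ifi203 at -1.70.

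The candidates gained far less ratio than the amounts. Turned to each candidate's sign, the gain from 0.025 to 2 pmol had a median of 1.97 over the 200, which is 31.1% of the 6.32 log2 units. For comparison, the median size of the difference over all 7901 tested probes was 0.49. Of the 200, 106 were called with a gain and 3 with a loss. A gain above 0 was measured in 177, the 95% interval lay above 0 in 139, and in 55 it held 0. Only 35 gained more than 50% of the log2 range.

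The median gain was higher among positive than among negative candidates. The 100 positive candidates had a median gain of 2.37 (quartiles 1.34 and 3.09) and a median ratio of 2.96 at 0.025 pmol and 5.39 at 2 pmol. Of these, 68 were called with a gain, against 10.0% called positive over all probes, and none with a loss. The 100 negative candidates had a median gain of 1.31 (quartiles 0.25 and 2.60), from 2.97 to 4.08 in size. Of these, 38 were called with a gain, against 7.52% called negative over all probes. The difference between positive and negative candidates was not tested. All 100 positive and 98 negative candidates had their sign already at 0.025 pmol.

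No positive candidate's interval reached 6.32, and of the negative ones only that of Tcra did. The 3 candidates called with a loss were negative: Kat6a, a histone acetyltransferase (from -4.20 to -2.02, limma adjusted p = 0.0149), Sntb2, a syntrophin (from -3.38 to -1.81, adjusted p = 0.0142), and the unnamed probe at spot 7224 (a loss of 1.77 in size, adjusted p = 0.0121).

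**Figure D3:**
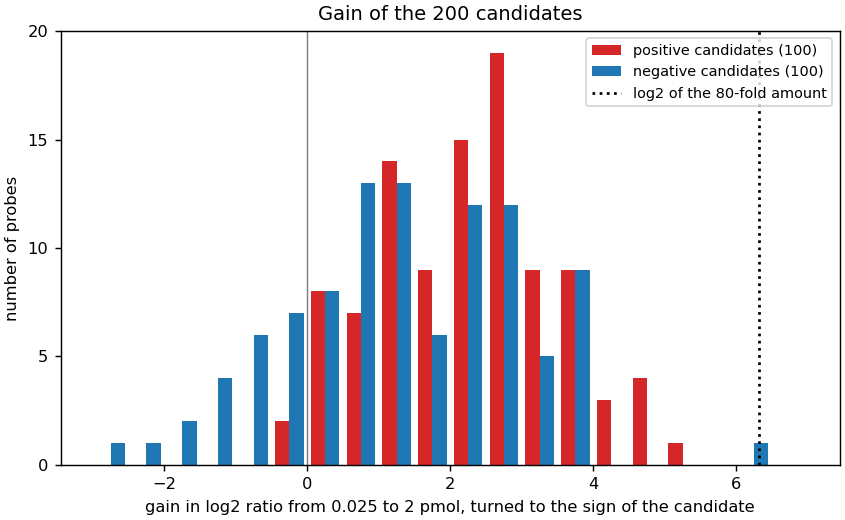
The horizontal axis is the gain in log2 ratio from 0.025 to 2 pmol, turned to the sign of each candidate, and the bars count the 100 positive (red) and 100 negative (blue) candidates; the dotted line marks 6.32, the log2 of the 80-fold amount. Most bars lie between 0 and 4, and Tcra is the single probe beside the dotted line.

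Per array, the separation of the candidates (the median positive minus the median negative ratio, divided by 2) came to 2.46, 3.33 and 3.04 on the low arrays and 4.77, 4.62 and 4.96 on the high ones. All 3 high arrays lay above all 3 low ones, by 1.84 on average, although 3 against 3 arrays cannot give an exact permutation p below 0.1. Unspiked arrays had a separation of 0.08 ± 0.03 (SD, n = 6). The mean separation did not follow the amount in order. It was 2.77 ± 0.80 at 0.05 pmol, 2.77 ± 0.91 at 0.1 pmol and 2.82 ± 1.03 at 0.75 pmol (SD, n = 6 each). These lay below the 0.025 pmol mean of 2.95 ± 0.44 by less than their SD. The amounts from 0.15 to 0.5 pmol had 3.57 to 3.72. At 0.05 and 0.1 pmol the low values came from replicates 4 to 6 (1.40 to 2.72 and 1.77 to 2.04). Their paired spots correlated at 0.402 to 0.691. Replicates 1 to 3 gave 3.35 to 3.42 and 3.54 to 3.66, above every 0.025 pmol array, with correlations of 0.925 to 0.958. At 0.75 pmol, replicates 1 to 3 gave 2.77 to 3.21 and replicates 4 to 6 gave 0.876 to 3.67. The part of the replicate set was not tested. Arrays of 1 pmol stood at 4.85 ± 0.10, beside 4.78 ± 0.17 (SD, n = 3 each) for 2 pmol, but those of 1 pmol measured only 7105, 4418 and 5993 of the 7920 probes.

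Candidates that were strongest over the intermediate amounts were high at both ends. Galnt13, which starts mucin-type glycosylation, read 7.06, 7.27 and 6.51 at 0.025 pmol and 10.15, 9.97 and 9.16 at 2 pmol. Its gain of 2.81 ± 0.33 (SE; limma adjusted p = 0.00171) came on top of a ratio already above 6.5. E2f4, a repressor of cell cycle genes, went from 4.88 ± 0.23 to 7.96 ± 0.55 (SD, n = 3 each; limma adjusted p = 0.000876).

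Zfp292, a zinc finger protein, read 6.88, 6.69 and 7.81 against 7.76, 8.21 and 7.82, and its groups overlapped. The difference of 0.80 ± 0.33 did not pass the test (limma adjusted p = 0.12), and neither did that of the unnamed probe at spot 8362 (0.31 ± 0.29, adjusted p = 0.462). Tlr1, a receptor for bacterial lipoproteins, read 6.29, 1.66 and 4.73 against 7.51, 7.94 and 7.36. The groups lay apart, but the wide low group left a difference of 3.38 ± 1.00 short of the threshold (limma adjusted p = 0.053). The other probes of Galnt13 and Zfp292 differed by -0.25 and -0.02 and were not called.

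On the negative side, Tec, a kinase of lymphocyte signalling, read -5.20, -6.93 and -6.41 against -7.37, -7.59 and -6.38. The groups overlapped, and the difference of -0.94 ± 0.49 was not called (limma adjusted p = 0.201). Ms4a4b, a membrane protein of T cells, averaged -5.78 and -7.07 and was not called either (adjusted p = 0.112). Zfp330 (from -4.24 to -7.10, adjusted p = 0.00954), Fem1c at spot 15721 (from -5.16 to -7.49, adjusted p = 0.00674) and Sox11, a neural transcription factor (from -3.87 to -7.10, adjusted p = 0.016), were called. The second Sox11 probe was near 0 in both groups and differed by 0.28 ± 0.34.

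**Figure D4:**
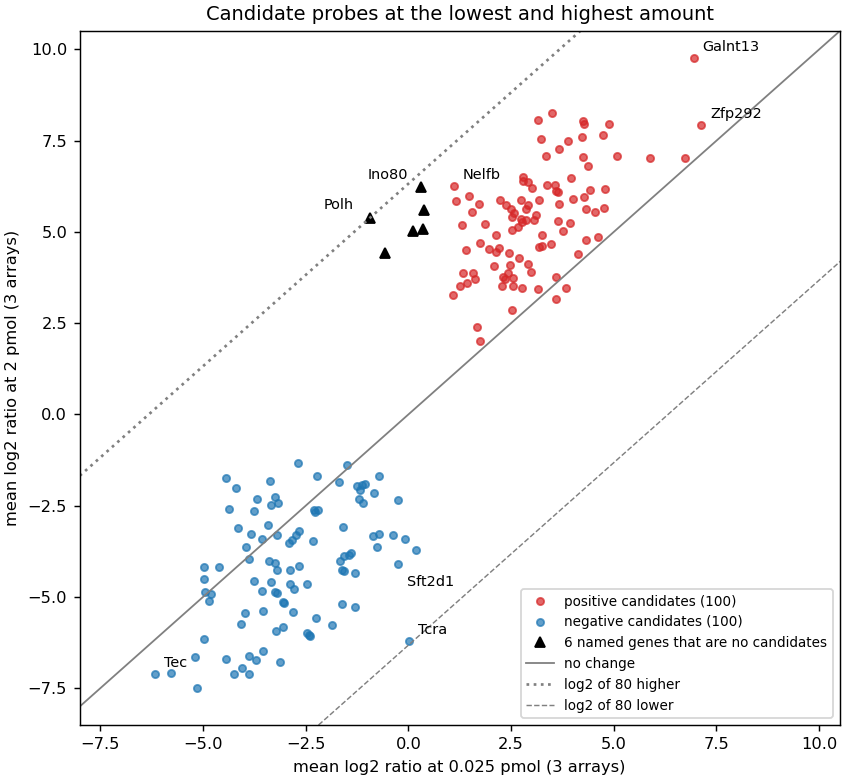
Each point is 1 probe, with its mean log2 ratio over the 3 arrays of 0.025 pmol on the horizontal axis and over the 3 arrays of 2 pmol on the vertical; positive candidates are red, negative ones blue, and black triangles are 6 named genes that are no candidates. The solid line marks equal ratios and the broken lines a change of 6.32; Polh and Tcra lie beside the broken lines, while Zfp292 and Tec lie near the solid one.

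The amounts between the ends showed where the ratios moved. Ino80 averaged 1.01 at 0.05 pmol, -0.20 at 0.2 pmol, 1.66 ± 2.16 at 0.5 pmol, 3.29 ± 1.27 at 0.75 pmol, 5.99 ± 0.56 at 1 pmol and 6.24 ± 0.08 at 2 pmol (SD between arrays). Polh had 0.92 at 0.05 pmol, 0.28 at 0.2 pmol, 2.14 at 0.5 pmol, 5.26 ± 0.61 at 1 pmol and 5.39 ± 0.09 at 2 pmol. For both, the 1 and 2 pmol means differed by less than the SD at 1 pmol. The wide SDs at 0.5 and 0.75 pmol leave the order of those neighbours unresolved.

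Tcra averaged -2.39 ± 2.13 at 0.05 pmol, -0.34 at 0.2 pmol, -2.67 ± 2.66 at 0.5 pmol, -6.49 ± 0.23 at 1 pmol and -6.21 ± 0.31 at 2 pmol. Sft2d1 averaged -0.86 at 0.05 pmol, -3.84 ± 1.60 at 0.15 pmol, -3.87 at 0.5 pmol and -4.61 at 1 pmol. At 0.15 and 0.2 pmol, where Tcra, Ino80 and Polh lay within 1 log2 unit of 0, Sft2d1 lay beyond -3.7. From 0.15 pmol upward its means lay between -4.61 and -2.38, with no steady order. Zfp292 and Tec stayed far from 0 throughout: Zfp292 was between 5.15 and 7.30 at the amounts from 0.05 to 0.75 pmol, and Tec between -6.72 and -4.34. At 1 pmol Galnt13 and Tec were each measured on 1 array, and Zfp292 and Fem1c on 2. The value of Galnt13 there was 12.68, and the mean of Zfp292 was 14.11 ± 2.76 (SD, n = 2).

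**Figure D5:**
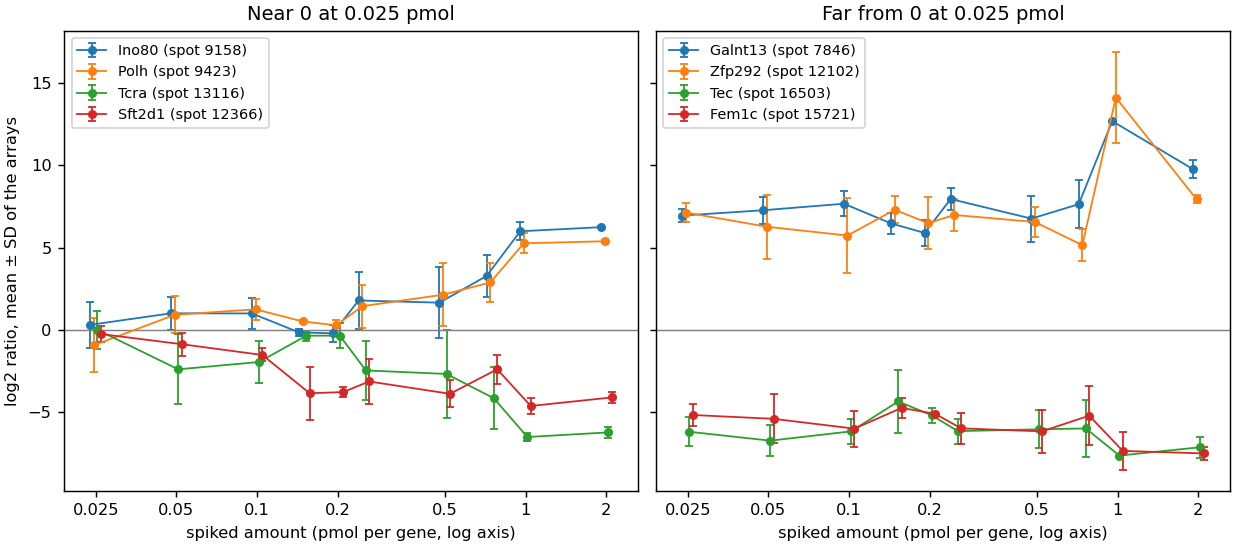
Points are mean log2 ratios and bars the SD between the arrays of each amount (no bar where 1 array was measured), against the spiked amount on a log axis with points shifted slightly sideways. The left panel holds probes near 0 at 0.025 pmol, which were farthest from 0 at 1 or 2 pmol; the right panel holds probes already beyond 5 in size at 0.025 pmol.

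A slope of ratio on log2 amount over the 39 arrays between the ends gave an estimate that does not use the 6 arrays. It was called for 446 of 7920 probes, 251 positive and 195 negative. Of the positive ones, 138 were also called positive between the ends (55.0% of the slopes and 17.4% of the 792 calls), and of the negative ones 114 (58.5% and 19.2% of 594). None was called in the opposite direction, and the background shares were 10.0% and 7.52%. The median differences between the ends were 1.46 and -1.12.

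Among called slopes, ratio climbed fastest with amount for Ino80 (0.80 ± 0.18 per doubling), Tmem179 (0.76 ± 0.23) and the unnamed probe at spot 839 (0.73 ± 0.16). Spot 839 also rose between the ends, from 2.87, 2.41 and 5.21 to 8.52, 8.35 and 7.91 (4.76 ± 0.66, limma adjusted p = 0.00384). Among called slopes it dropped fastest for Rrn3, an RNA polymerase I initiation factor (-0.65 ± 0.12), Sft2d1 (-0.61 ± 0.13) and Ctse (-0.59 ± 0.13). Tcra had a slope of -0.70 ± 0.22 that did not pass the test. Rrn3 fell between the ends by 3.31 ± 0.56, from a mean of -2.25 to -5.57 (limma adjusted p = 0.00894).

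Tmem179 moved the other way with respect to 0: it read -2.08, -5.90 and -1.92 at 0.025 pmol and 0.20, 0.84 and -0.12 at 2 pmol. Its positive slope therefore described a ratio that approached 0. Its limma adjusted p was 0.041, and the call was lost in 6 of 17 alternative settings.

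The 12 gene lists, grouped by function or cell type, each held between 0 and 5 called probes, to be read against the 17.5% called over all probes (10.0% positive and 7.52% negative). Of 25 tested probes for chromatin remodelling and modification, 3 were called positive and 2 negative, a share near that of all probes, with a median difference of -0.33 against 0.07 over all probes. Besides Ino80, Ezh2, the Polycomb methyltransferase, had 2 probes called in opposite directions (1.24 ± 0.30 and -0.85 ± 0.21), and Smarcc2, a BAF subunit, was called at 0.93 ± 0.25, from -0.98 to -0.04. The Ezh2 and Smarcc2 probes ended near 0. Bptf, a subunit of the NURF remodelling complex named here after its values were seen, had 1 of 3 probes called (spot 3627, from 0.35 to -0.48, limma adjusted p = 0.031). That probe and Ino80 were the 2 called probes of this list that gained ratio. No probe of this list was a candidate.

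Among 30 probes for DNA polymerases, repair and the damage response, 1 was called positive (Polh) and 3 negative (Topbp1, Rev1 and Parp1), with a median of -0.19, and the 4 calls are no larger a share than the 17.5% of all probes. Rev1, a translesion polymerase, went from 0.90 to -0.73 and Parp1, a sensor of DNA breaks, from 1.37 to 0.05. Of the 4 called probes, only Polh and Topbp1 gained ratio. Of 20 probes for vesicle and Golgi transport, 2 were called, both negative: Sft2d1 and Copb1, a coat protein of retrograde transport (0.89 to -0.31). Their median was -0.05.

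Of 8 T and NK cell probes, Tcra was called negative and Ctla4, an inhibitory receptor, positive. Ctla4 read -2.71, -1.30 and -1.46 against 0.24, -0.44 and 0.36, so it lost ratio. Of 5 B and plasma cell probes, Btk (0.78 ± 0.22) was called positive, and Cd22 and Pou2af1 negative. Cd22, an inhibitory B cell receptor and a candidate, read -2.96, -2.78 and -3.90 against -6.02, -5.86 and -5.92, a difference of -2.72 ± 0.31 (limma adjusted p = 0.00163). It averaged 0.20 on unspiked arrays. Pou2af1, a B cell coactivator, crossed 0, from a mean of 1.21 to -1.19. None of 4 myeloid probes was called.

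The endoplasmic reticulum list had 3 of 8 probes called, all negative, where 17.5% of all probes were called and 7.52% called negative. They were both probes of Sel1l, an adaptor for degradation of misfolded proteins (-0.92 and -1.16), and Sec61b of the translocon (-1.12). Only 1 of the 3 gained ratio. The Sel1l calls were lost in 9 and 4 of 17 alternative settings, and that of Sec61b in 7. Of 11 cell cycle probes 4 were called (17.5% of all probes), E2f4 and Kif11, a spindle motor (1.60), positive, and Plk1, a mitotic kinase (-1.12), and Ccnd1 (-0.75) negative. Glycolysis had 3 of 11 called positive (10.0% of all probes, and 17.5% in either direction), at 2 Pfkp probes (2.39 and 2.14) and Pfkl (1.39), subunits of phosphofructokinase, and Gapdh negative at -1.95. The Pfkp and Pfkl probes rose from below 0 to between 0.01 and 0.61, so none of them gained ratio. Of other probes of these genes, those of Pfkp (-0.55 and 0.11), Gapdh (0.67, and a further one with means of 1.08 and -0.42), Kif11 (0.37), Ezh2 (0.40) and Smarcc2 (-0.65) were not called.

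Of 4 oxidative phosphorylation probes Ndufa4 was called (-1.74), of 2 ribosomal protein probes none, and of 12 probes for liver, muscle, nerve and stroma only Krt18, an epithelial keratin. Krt18, a candidate, went from 2.46 ± 0.27 to 4.42 ± 0.01 (SD, n = 3 each; limma adjusted p = 0.00141). The sign of a list median is relative to all probes: without centring all of them shift upward alike, the median over all probes being 0.75 in place of 0.07, and 9 of the 12 list medians change sign by that shift. Most list members with differences near 1 were also sensitive to the settings, with Btk losing its call in 11 of 17 and Ccnd1, Smarcc2 and 1 Sel1l probe in 9.

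Of the called probes that lost ratio, those below were chosen by large differences between the amounts, not by the ratio lost. Tmem179 and Pou2af1, described above, belong to the same set. Spot 4402 read -5.67, -2.47 and -4.14 at 0.025 pmol and -0.44, 1.84 and -1.37 at 2 pmol, a difference of 4.10 ± 0.97. Spot 1896 (from -3.12 to 0.16) and Mrap, a melanocortin receptor accessory protein (from -3.07 to 0.19), also ended near 0. Bcl2, the survival factor, read 2.16, 3.11 and 3.15 against 0.38, 0.04 and 0.05, with a difference of -2.65 ± 0.31 (limma adjusted p = 0.00167). The other Bcl2 probe was not called (0.32 ± 0.53), nor was the other probe of Efnb1 (-0.14 ± 0.23).

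Efnb1, an ephrin ligand, went from 1.37 to -1.34 and Nodal, a morphogen of the early embryo, from 1.39 to -1.02, so these crossed 0 with nearly unchanged size. Among the 717 probes that lost ratio, the mean of the unspiked arrays lay nearer to that of 2 pmol in 343. Among the 669 that gained ratio it did so in 53. The classes are defined by distance from 0, and the unspiked arrays were also centred on 0. The contrast between these counts was therefore largely set in advance and is no separate result. No positive candidate and 3 negative ones were among the losses, against 68 and 38 among the gains.

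Some gains of probes that were not candidates lay beside a candidate on the array. Of 88 positive probes of 2 or more that gained ratio and were not candidates, 27 (30.7%) lay next to a positive candidate, against 7.61% of all probes that were not candidates. For smaller positive gains it was 24 of 216 (11.1%). On the negative side it was 7 of 57 (12.3%) and 18 of 202 (8.91%), against 7.58%. Candidates were themselves unevenly placed: 5 of the 22 columns held 128 of the 200 (64.0%) and 24.1% of the probes. The part of this placement in the gains was not tested.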

How the data were processed

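Each array was deposited as 1 column of a value table; the deposited values are log2 ratios of the 2 channels, the base being read from an upper limit of 16.61, the log2 of 100000. Background correction, normalisation and numerator channel are not given in the sources used here. Values at the limit (1074 on 51 arrays) were set missing, arrays were centred on their medians, and spots 22 rows apart in the table were averaged to 7920 probes after 528 control probes were left out. Of these, 5348 had 1 gene symbol, from the platform annotation updated by Entrez identifier through RefSeq (GRCm38.p6). Differences were fitted with limma 3.58.1 (R 4.3.3; lmFit, eBayes) on the 6 arrays, for probes measured on at least 2 arrays of each group, with Benjamini-Hochberg adjustment over 7901 probes, two-sided, threshold 0.05. Intervals are 95% and cover the spread between arrays. The fit was tested on simulated data.

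Named genes were the 12 largest differences each way with groups apart on 6 arrays (at most 2 unnamed each way), the 4 genes named with the comparison, the 5 strongest candidates and 3 steepest slopes each way, up to 4 called members of each of 12 gene lists, and up to 4 called losses each way, with their other probes. The genes, lists and rules were chosen with earlier results of these data known. Alternatives covered centring, scaling, limit values, single spots, other arrays in the fit, array weights, the replicate block, other candidates and leaving out each array.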

Additional observations from a re-analysis of the deposited data

Results flagged for a closer look

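Of 30 groups of 4 to 10 arrays examined, 4 held an array far from the others; chance alone gives about 1 in 20. Replicate 4 of 0.75 pmol had a candidate separation of 0.876, against 2.77 to 3.67 on the others, and a Tcra ratio of -0.614, against -5.84 to -4.03; its paired spots correlated at 0.198. It entered the choice of candidates and the slopes, but not the comparison of 2 with 0.025 pmol. Among the unspiked arrays, replicate 4 had a separation of 0.138, against 0.0584 to 0.08, and replicate 3 an Ino80 ratio of -0.354, against -0.015 to 0.167.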

How the results depend on the processing

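None of the 62 named probes that were called, and none of the candidate measures, changed direction under the 17 alternative settings of the fit or, for the candidates, 3 other choices of them; differences that were not called could change sign, as at spot 6868 of Polh (-0.72 to 0.34) and spot 8362 (-0.25 to 2.03). The median candidate gain of 1.97 became 1.54 without centring, where fewer candidates met the sign rule, 2.87 with all arrays scaled to one spread, 1.65 with candidates from 0.05 to 0.25 pmol and 2.29 with candidates from 0.5 to 1 pmol. The separation difference of 1.84 became 2.86 with one spread. Array weights gave 2092 called probes in place of 1386, and leaving out each array in turn gave 360 to 1475; the cause was not tested. The other settings gave 988 to 1929. Over the arrays left out, the candidates called with a gain numbered 82 to 135.

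With the replicate number as a block, 1289 probes were called. Deviations of same-numbered arrays correlated at -0.059, 0.124 and 0.075, and those of other-numbered arrays at -0.151 to 0.127. With 3 arrays per group these values cannot tell whether same-numbered arrays share more than a number. Of those 62 probes, 34 kept the call in all 17 settings, among them all 12 leading positive probes and 11 of the 12 negative ones. The leading probes were chosen for large called differences on the arrays that the settings reuse. Their kept calls are therefore no separate support. The 3 arrays per group, the unknown background correction and the unnamed spiked genes limit what the ratios can show.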
